A study of Mus musculus with 6 samples.

Results

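The genes described here are 10 members of the semaphorin signalling system: the secreted class 3 semaphorins Sema3a, Sema3c and Sema3e, the membrane-anchored class 4 semaphorins Sema4a, Sema4b and Sema4d, the neuropilins Nrp1 and Nrp2, and the class B plexins Plxnb1 and Plxnb2. The members were chosen with earlier results of these data known. They were taken by name, with every probe set whose platform annotation gives 1 of these symbols alone. This yielded 27 probe sets for 10 of the 18193 genes that the array names in this way. RNA came from 393P, a mouse lung cancer cell line, grown in RPMI with fetal bovine serum and transfected by lipofection. In 3 cultures the cells carried the empty pcDNA vector (control vector) and in 3 they stably and constitutively expressed Zeb1 (Zeb1 vector), a zinc-finger and homeobox transcription factor known for repressing epithelial genes. Each culture was measured on 1 Affymetrix array. How many transfections or clones the groups rest on is not stated in the labels, so the p-values measure the spread between cultures, and the number of arrays limits the precision.

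Semaphorins are extracellular guidance cues that were first studied in growing axons and are also known to act on endothelial, epithelial, immune and tumour cells. Class 3 semaphorins are secreted, and most bind a neuropilin, which holds the ligand while a plexin partner carries the signal across the membrane. Sema3e can bind plexin D1 without a neuropilin, and class 4 semaphorins such as Sema4d bind class B plexins directly. Plexins act inside the cell through a GTPase-activating domain, and the outcome is a change in adhesion and in the cytoskeleton. Neuropilins also serve as co-receptors for vascular endothelial growth factors.

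The vector could be followed by Zeb1 itself. Its probe set 1418926_at read log2 3.36, 3.84 and 4.50 on the control arrays and 9.71, 9.59 and 9.78 on the Zeb1 arrays. All Zeb1 arrays were high, they alone carried the probe set past the filter, and 2 control arrays lay under the floor of log2 4.45 to which lower signals were raised before testing. The fold on this probe set was at least 37.4 (log2 difference 5.23, SE 0.177, adjusted p = 2.3e-08 by limma with Benjamini-Hochberg adjustment, the test used throughout), and 3.37 in log2 with the floor at the pooled median. Probe set 1443005_at rose by only 1.17 in log2 (SE 0.296, adjusted p = 0.00895, and 0.0697 with no filter). The dim 1420243_at and 1446127_at were not tested, and their groups overlapped. The keratins Krt8, Krt18 and Krt19, which mark epithelial cells, were bright on every array, whereas 4 of 6 epithelial markers fell (Cdh1, Epcam, Krt7 and, by only 0.16 in log2, Krt8). By comparison, 23.5% of all genes were called lower. Dimmer Krt8 probe sets had log2 changes of -0.23 (adjusted p = 0.00546) and -0.08 (not called, adjusted p = 0.257). The epithelial list's summed linear signal was 110000 to 116000 in control and 57600 to 61800 in Zeb1 cultures. Of the lung lineage markers Nkx2-1 and Scgb1a1 stayed below the pooled median on every array. So did the leukocyte markers Ptprc, Cd3e and Itgam (list sum 1110 to 1290 in control and 4660 to 5150 in Zeb1 cultures, most of it from Cd14, which rose by 2.29 in log2), the endothelial markers Pecam1, Emcn and Vwf (sum 348 to 483 and 343 to 487) and the fibroblast markers Col1a1 and Lum (sum 289 to 522 and 290 to 421). Other genes of these lists were brighter. Tested were 3 lung, 1 endothelial (Kdr), 1 fibroblast (Col1a2) and 3 neuronal and Schwann genes, and none was called. Among them Sftpb was higher on every Zeb1 array (log2 change 0.36, adjusted p = 0.06). Of the leukocyte list Cd68 was tested and not called. The neuronal and Schwann markers summed to 444 to 514 in control and 378 to 519 in Zeb1 cultures. Any part of these marker differences in the results on semaphorin genes was not tested, and in such bulk samples fewer cells of a type and less RNA per cell cannot be told apart.

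Zeb1 is known to bind CACCT-type boxes, so the 250 bases upstream of the members' start sites were read from the RefSeq promoter table of build GRCm38.p6, in which all 10 members matched, with 17 windows. The 4 windows shown are those of both neuropilins, which changed in opposite directions, of Plxnb2, which fell and held the 6-letter form of the motif, and of Sema3c, which rose and held no match. Letters matching CACCT or its reverse complement AGGTG are in capitals, as is the C next to them where they form CACCTG or CAGGTG. Each is written 5′ to 3′ on the gene's own strand.
Nrp2 promoter, chr1:62703067-62703316, plus strand: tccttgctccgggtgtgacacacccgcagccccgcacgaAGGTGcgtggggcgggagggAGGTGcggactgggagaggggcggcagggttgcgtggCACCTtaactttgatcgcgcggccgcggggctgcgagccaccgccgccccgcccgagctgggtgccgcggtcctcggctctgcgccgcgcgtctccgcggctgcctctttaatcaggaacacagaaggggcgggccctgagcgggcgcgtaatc
Nrp1 promoter, chr8:128358823-128359072, plus strand: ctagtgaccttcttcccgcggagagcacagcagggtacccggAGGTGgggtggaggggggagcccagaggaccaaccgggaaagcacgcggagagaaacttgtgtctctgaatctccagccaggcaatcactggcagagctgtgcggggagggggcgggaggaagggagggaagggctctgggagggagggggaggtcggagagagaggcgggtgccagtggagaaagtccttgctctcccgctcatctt
Plxnb2 promoter of the second listed start site, chr15:89173952-89174201, minus strand: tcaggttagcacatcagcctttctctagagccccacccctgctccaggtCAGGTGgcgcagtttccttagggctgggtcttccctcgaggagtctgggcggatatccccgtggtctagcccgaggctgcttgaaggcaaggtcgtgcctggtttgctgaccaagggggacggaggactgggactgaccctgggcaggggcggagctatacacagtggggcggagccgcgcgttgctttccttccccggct
Sema3c promoter, chr5:17574566-17574815, plus strand: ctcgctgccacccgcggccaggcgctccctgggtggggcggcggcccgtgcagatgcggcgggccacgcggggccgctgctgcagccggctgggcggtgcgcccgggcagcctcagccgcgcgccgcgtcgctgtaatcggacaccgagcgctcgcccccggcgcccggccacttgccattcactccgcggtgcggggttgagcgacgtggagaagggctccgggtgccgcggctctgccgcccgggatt

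The Nrp2 window held 3 matches, whose first bases lay at -211, -191 and -154 from the start site. The Nrp1 window held 1, at -208, and the Plxnb2 window shown held 1, at -200, which was also the only CACCTG match among the members. The windows of Sema3a, Sema3c, Sema3e, Plxnb1 and Sema4d held no match. Of these genes Plxnb1 and Sema4d fell and the class 3 semaphorins rose, so genes without a match went in both directions. Nrp1, with a match, rose and Nrp2 fell. The windows shown were picked by direction and match, and no pairing of the motif with direction is read from them. Across the family, 9 of 17 windows (52.9%) held CACCT on either strand. Over all RefSeq windows of the same length it was 15100 of 32851 (46%). The 9 member windows include every window of Sema4a, a gene too dim to be tested. The windows of Sema4a start sites 2 and 3 overlap and share 1 AGGTG match, at -5 and at -222, which counts in both. For the 6-letter CACCTG, which contains the shorter motif, the counts were 1 of 17 (5.88%) and 5657 of 32851 (17.2%). A match is a description of letters, and binding was not measured in these samples.

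Of the 27 probe sets, 21 from 9 genes were bright enough to be tested, that is, their signals were at or above the array median on 3 or more arrays. Among them 11 were higher in Zeb1 cultures, 6 were lower and 4 were not called at an adjusted p of 0.05. Of the 11, 1, a dim Sema4b probe set, passed the filter through the Zeb1 arrays alone, and without it 10 were higher. Over all 20594 tested probe sets 24.5% were called higher and 21.6% lower. At 2-fold or more, 9 member probe sets were called higher and 2 lower, where the background was 8.97% and 6.17%. The arrays of the 2 groups did not overlap for 17 member probe sets, 12 with all Zeb1 arrays above and 5 with all below, against 55.4% of all tested probe sets. Both the 9 and the 12 include the dim Sema4b probe set, whose direction was fixed by the filter. The median absolute log2 change was 1.03 for the member probe sets and 0.36 for all tested ones, and the median signed change was 0.81 and 0.02. Because the members were chosen with earlier results of these data known, nothing about the family is concluded from these comparisons with the background. When each gene was taken by its brightest tested probe set, Sema3a, Sema3c, Sema3e and Nrp1 rose, Sema4d, Nrp2, Plxnb1 and Plxnb2 fell, and Sema4b was not called, with 25.8% of all 11893 genes called higher and 23.5% lower. Thus of the 6 ligands 3 rose, 1 fell, 1 was not called and 1 was not tested, with a median of 0.79, and of the 4 receptors 1 rose and 3 fell, with a median of -0.79. Since probe sets of a gene share its RNA, they are not replicates of a condition.

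**Figure D1:**
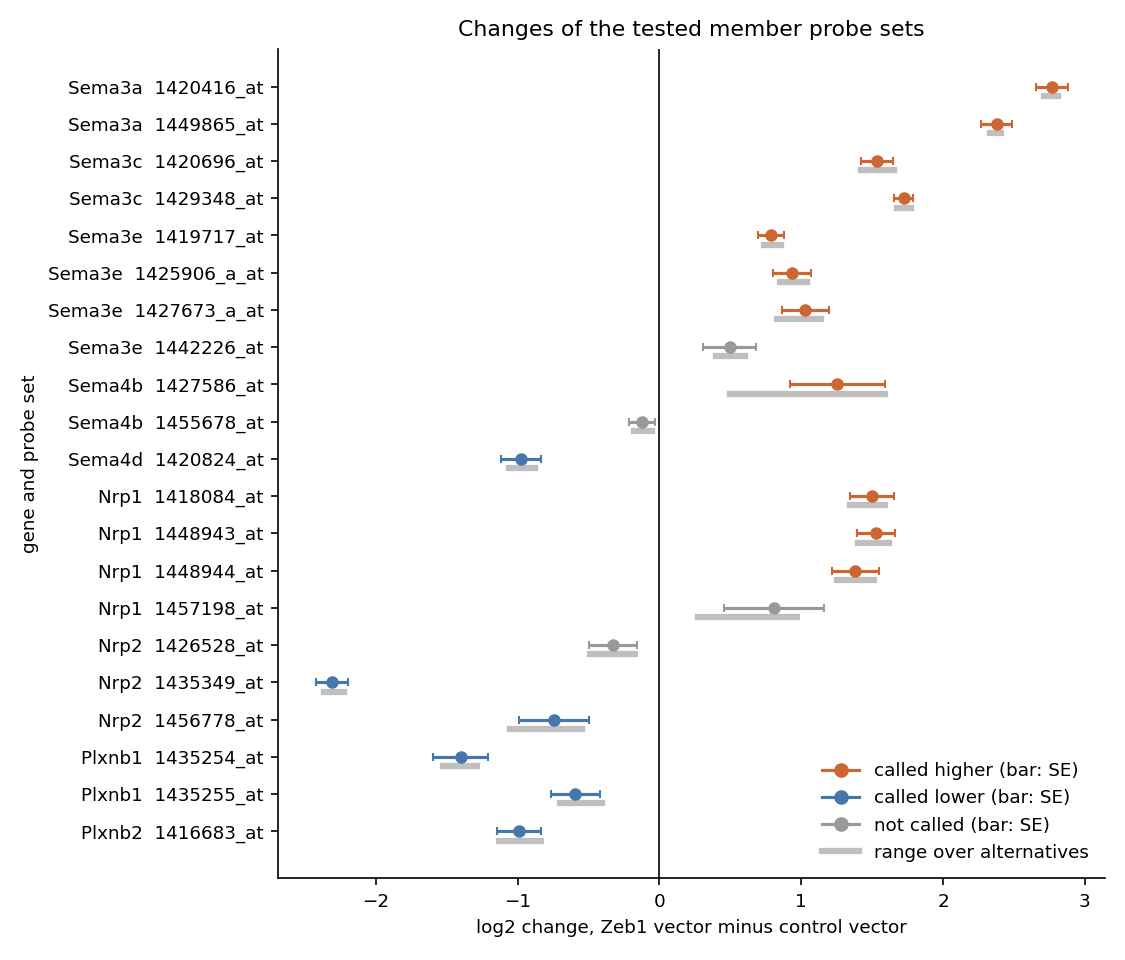
Log2 change (Zeb1 vector minus control vector, 3 arrays each) of the 21 tested member probe sets, one row per gene and probe set, with thin bars for the standard error, grey bars for the range over the alternative settings and colours for the call. The Sema3a, Sema3c and Sema3e probe sets all lie to the right of 0, those of Nrp2, Plxnb1, Plxnb2 and Sema4d to the left, and the Sema4b probe sets on both sides.

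The class 3 ligands among the members rose by their brightest probe sets. Sema3a, which repels axons and collapses their growth cones through neuropilin-1 and class A plexins, read log2 7.47, 7.34 and 7.52 on the control arrays and 10.23, 10.29 and 10.12 on the Zeb1 arrays of probe set 1420416_at. Every Zeb1 array was high and the groups were far apart relative to the spread within them. The means were 7.45 ± 0.0933 and 10.21 ± 0.0878 (SD, n = 3 each), a 6.8-fold rise (log2 change 2.77, SE 0.113, adjusted p = 7.11e-08). Probe set 1449865_at read 7.54, 7.51 and 7.52 in control and 9.87, 9.84 and 10.00 in Zeb1 cultures, and its log2 change was 2.38 (SE 0.11, adjusted p = 1.66e-07). The third Sema3a probe set, 1420417_at, was too dim to be tested. It read 0.85, 1.07 and 3.63 in control, all below the floor, and 5.27, 5.82 and 5.74 in Zeb1 cultures, so it too was higher on every Zeb1 array.

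Sema3c, a secreted semaphorin that binds both neuropilins and is known from heart outflow tract development and from several carcinomas, was already bright in control cultures. Probe set 1429348_at read 12.21, 12.42 and 12.30 on the control arrays and 14.11, 13.97 and 14.02 on the Zeb1 arrays. The groups did not overlap, and the spread within each was small beside the gap. The log2 change was 1.72 (SE 0.0661, adjusted p = 5.04e-08), or 3.3-fold. Probe set 1420696_at read 10.54, 10.07 and 10.28 and then 11.78, 11.91 and 11.81, a log2 change of 1.54 (SE 0.112, adjusted p = 3.68e-06). Both Sema3c probe sets therefore showed all Zeb1 arrays above all control arrays.

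Sema3e, which signals through plexin D1 and is known for restraining vessel growth, rose by less. Its brightest probe set, 1419717_at, read 9.85, 10.10 and 9.93 in control and 10.79, 10.64 and 10.80 in Zeb1 cultures, a 1.73-fold rise (log2 change 0.79, SE 0.0928, adjusted p = 9.08e-05). Probe sets 1425906_a_at and 1427673_a_at rose by 0.94 (SE 0.134, adjusted p = 0.000321) and 1.03 (SE 0.165, adjusted p = 0.00065). On all 4 Sema3e probe sets the lowest Zeb1 array was above the highest control array. The dimmest, 1442226_at, read 7.10, 6.88 and 7.18 in control and 7.64, 7.33 and 7.68 in Zeb1 cultures, and its log2 change of 0.50 (SE 0.185) was not called, with an adjusted p of 0.0523. That probe set passed under 4 alternatives: the higher floor (0.0307), the stricter filter (0.0394), no intensity trend (0.0271) and without Zeb1 vector replicate 2 (0.0453).

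Sema3a, Sema3e and Sema3c lie on chromosome 5, in that order, in a stretch of 46 RefSeq genes of which 6 were tested. The stretch also held Cacna2d1, a calcium channel subunit gene, which rose with a log2 change of 4.99 (adjusted p = 3.06e-07). Speer3 and Speer4f1 were not called, with log2 changes of -0.03 (adjusted p = 0.934) and -0.16 (adjusted p = 0.892). The nearest 10 tested genes on either side, with members left out, had median log2 changes of 0.11 around Sema3a, 0.10 around Sema3e and 0.13 around Sema3c. For Nrp2 on chromosome 1 that median was 0.38, against its own log2 change of -2.31. Of its 20 neighbours 9 were called higher and 2 lower, where the shares over all genes were 25.8% and 23.5%. The counts of higher neighbours ranged from 0 around Plxnb2 to these 9 around Nrp2. For Nrp1 on chromosome 8 the median was -0.06 over 12 neighbours. Single neighbours ranged from -0.52 to 4.99 around Sema3a, Sema3e and Sema3c, from -0.30 to 1.44 around Nrp2 and from -7.98 to 0.67 around Nrp1. A called gene will mostly exceed a median near 0, so nothing particular to the members is read from these medians or counts. No test was made.

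The class 4 ligands, which stay on the membrane unless cut off, did not move as a block. Sema4d, a ligand of plexin B1 and plexin B2 known from T cells and from tumour vessels, read log2 8.93, 9.29 and 9.09 on the control arrays and 8.16, 8.27 and 7.95 on the Zeb1 arrays of its tested probe set 1420824_at. All Zeb1 arrays were lower. The means were 9.10 ± 0.183 and 8.13 ± 0.164 (SD, n = 3 each), a 1.96-fold fall (log2 change -0.97, SE 0.142, adjusted p = 0.000355). Its other probe sets were too dim to be tested. Probe set 1434596_at read 5.79, 6.07 and 5.71 in control and 3.50, 4.37 and 4.91 in Zeb1 cultures, with 2 Zeb1 arrays under the floor. Probe set 1420823_at read 4.49, 5.03 and 4.94 and then 3.07, 4.20 and 3.69, with all 3 Zeb1 arrays under the floor. With no filter their adjusted p was 0.00811 and 0.176, so the second allows no statement on change.

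Sema4b, a less studied class 4 semaphorin, gave different answers on its probe sets. The bright 1455678_at read 10.17, 10.22 and 10.18 in control and 10.18, 10.09 and 9.93 in Zeb1 cultures. The groups overlapped, and the log2 change of -0.12 (SE 0.0909) was not called (adjusted p = 0.306). The dim 1427586_at read 5.22, 5.25 and 6.23 and then 7.05, 6.87 and 6.56, so all Zeb1 arrays were higher, and it was called with a log2 change of 1.26 (SE 0.338, adjusted p = 0.0126). With the floor raised to the pooled median (log2 6.32) that change shrank to 0.50, with an adjusted p of 0.028, and with no filter the call was lost (0.0636). Without any 1 of the Zeb1 arrays it was too dim to be tested. It passed the filter through the Zeb1 arrays alone, so it had to be higher there, and no direction is given for Sema4b.

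Sema4a, known as a regulator of T cells and of retinal cells, was dim throughout and was not tested. Probe set 1438934_x_at read 6.01, 4.63 and 6.18 in control cultures, and in Zeb1 cultures it read below 0 on replicate 1 and 3.68 and 3.79 on the others, all under the floor. Probe set 1448110_at was under the floor on every array, between 2.38 and 3.51. These signals allow no statement on whether Sema4a changed.

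**Figure D2:**
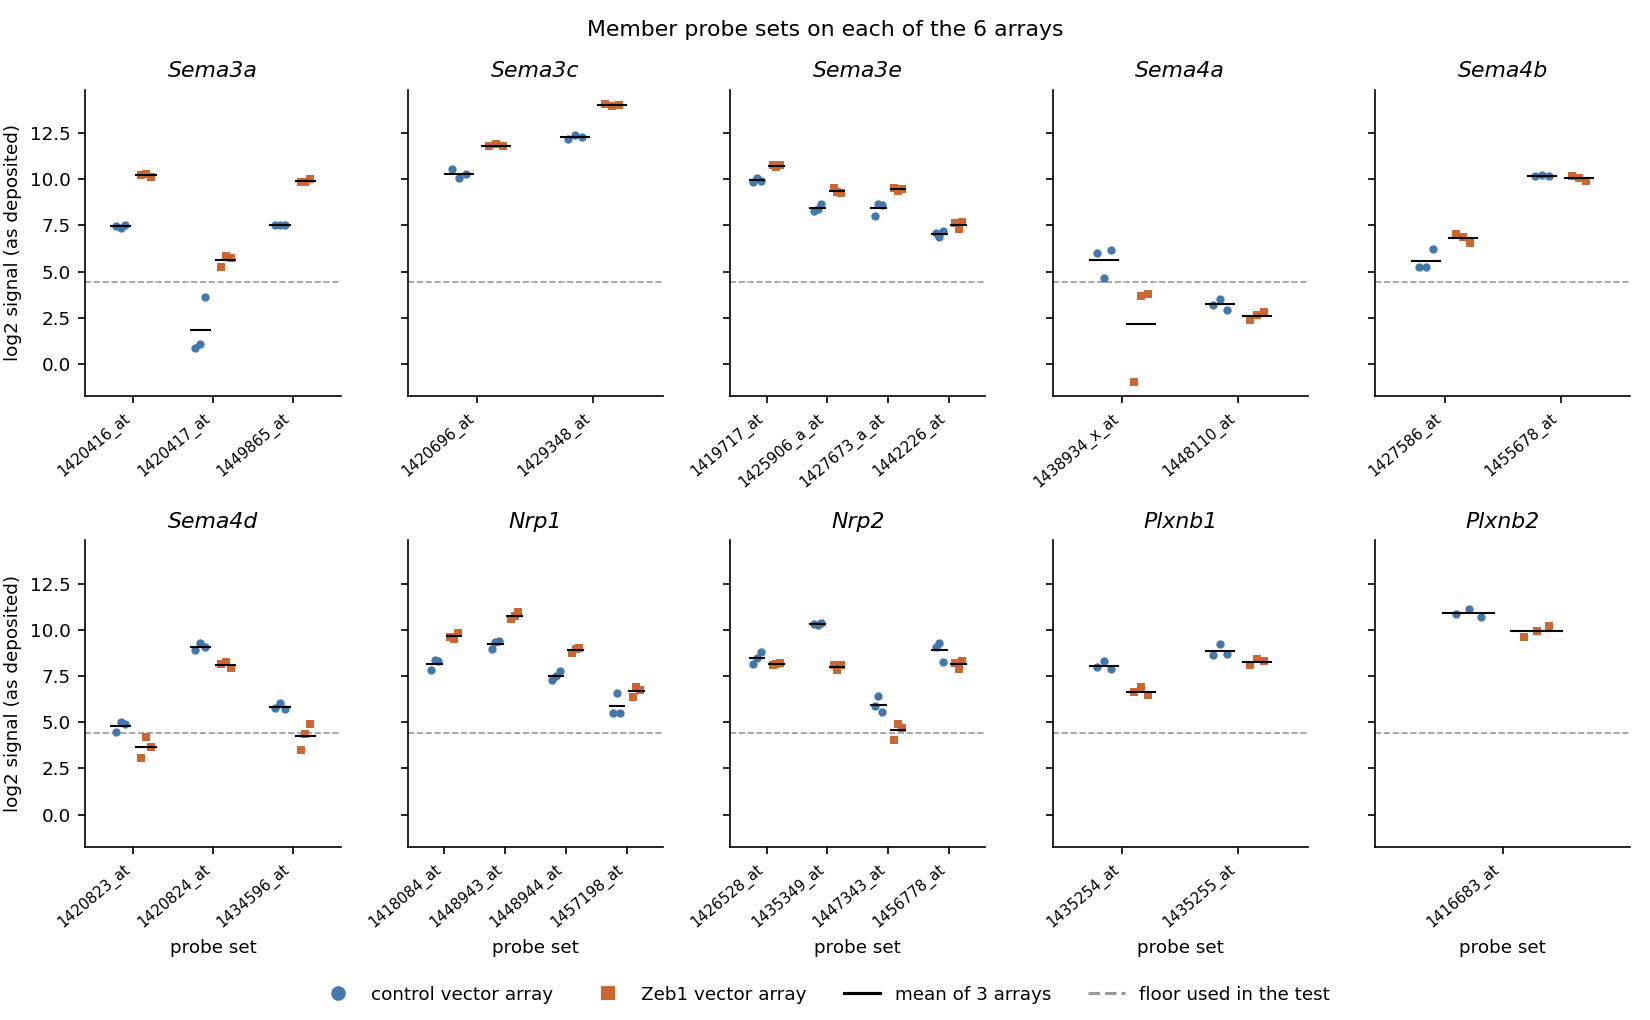
Deposited log2 signal of every member probe set on each of the 6 arrays, one panel per gene, with control vector arrays as circles, Zeb1 vector arrays as squares, group means as black lines and the floor used in the test as a dashed line. Nrp1 points of the Zeb1 arrays lie above the control points on its 3 brightest probe sets, and on Nrp2 probe set 1435349_at they lie below; levels of different probe sets cannot be compared.

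The neuropilins moved in opposite directions. Nrp1, the receptor that holds Sema3a and also binds VEGF-A, read log2 9.00, 9.33 and 9.43 on the control arrays and 10.61, 10.76 and 10.97 on the Zeb1 arrays of 1448943_at. Every Zeb1 array was above every control array. The means were 9.25 ± 0.224 and 10.78 ± 0.178 (SD, n = 3 each), a 2.89-fold rise (log2 change 1.53, SE 0.133, adjusted p = 1.21e-05). Probe sets 1418084_at and 1448944_at also rose, by 1.50 (SE 0.156, adjusted p = 4.01e-05) and 1.38 (SE 0.164, adjusted p = 9.27e-05). The fourth, 1457198_at, read 5.50, 6.60 and 5.53 in control and 6.36, 6.94 and 6.76 in Zeb1 cultures. Its groups overlapped, and the log2 change of 0.81 (SE 0.351) was not called (adjusted p = 0.0877).

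Nrp2, the receptor that holds Sema3f and also binds VEGF-C, read log2 10.31, 10.27 and 10.36 on the control arrays and 8.09, 7.83 and 8.10 on the Zeb1 arrays of 1435349_at. The control arrays lay close together and all Zeb1 arrays were far lower. The means were 10.31 ± 0.0453 and 8.00 ± 0.153 (SD, n = 3 each), a 4.96-fold fall (log2 change -2.31, SE 0.112, adjusted p = 2.21e-07). The other Nrp2 probe sets gave smaller differences. Probe set 1456778_at read 9.10, 9.30 and 8.29 in control and 8.21, 7.89 and 8.35 in Zeb1 cultures, and control replicate 3 lay among the Zeb1 arrays. Its log2 change was -0.75 (SE 0.247, adjusted p = 0.0323). That call did not hold with no filter (adjusted p = 0.186), without the intensity trend (0.0767), and without control replicate 1 (0.099), control replicate 2 (0.0992), Zeb1 replicate 1 (0.0562) or Zeb1 replicate 2 (0.0995).

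Probe set 1426528_at for Nrp2 read 8.17, 8.51 and 8.81 in control and 8.12, 8.17 and 8.21 in Zeb1 cultures. The groups overlapped, and the log2 change of -0.33 (SE 0.168) was not called (adjusted p = 0.145), although it passed without control replicate 1 (-0.49, adjusted p = 0.0306). The untested 1447343_at read 5.88, 6.43 and 5.58 and then 4.07, 4.93 and 4.69, lower on every Zeb1 array. All 4 Nrp2 probe sets had lower means in Zeb1 cultures, but the differences varied widely in size, and which transcripts each one reads was not analysed here.

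Both Plxnb1 and Plxnb2 fell, while the third class B plexin, Plxnb3, was not called. Plxnb1, a receptor of Sema4d that partners with the Met and ErbB2 receptor tyrosine kinases, read log2 8.66, 9.25 and 8.72 on the control arrays and 8.12, 8.42 and 8.32 on the Zeb1 arrays of its brightest probe set, 1435255_at. All Zeb1 arrays were lower, by a 1.51-fold difference of means (log2 change -0.59, SE 0.173, adjusted p = 0.0184). This probe set missed the threshold with no filter (adjusted p = 0.0988) and without Zeb1 replicate 1 (0.0614). Probe set 1435254_at read 8.03, 8.30 and 7.89 and then 6.64, 6.92 and 6.46, and fell 2.64-fold (log2 change -1.40, SE 0.195, adjusted p = 0.000269). Both Plxnb1 probe sets were thus called in 1 direction, with the dimmer one showing the larger change.

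Plxnb2, the class B plexin known from neural tube closure and from epithelial migration, read log2 10.89, 11.15 and 10.72 in control and 9.62, 9.97 and 10.21 in Zeb1 cultures on its single probe set, 1416683_at. The highest Zeb1 array was below the lowest control array. The means were 10.92 ± 0.219 and 9.93 ± 0.297 (SD, n = 3 each), a 1.99-fold fall (log2 change -0.99, SE 0.157, adjusted p = 0.000596). Among the 7 member genes with several tested probe sets, all were called the same way for 3, namely Sema3a, Sema3c and Plxnb1.

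The rest of the family was read from 14 other semaphorins and 9 other plexins or plexin-domain proteins, each by its brightest tested probe set. Of the 8 semaphorins tested, 2 rose, 2 fell and 4 were not called, with a median log2 change of 0.16, where 25.8% of all genes were called higher and 23.5% lower, so the counts match the background. Sema3f, the class 3 ligand held by Nrp2, read log2 9.54, 9.83 and 9.16 on the control arrays and 8.12, 6.69 and 6.73 on the Zeb1 arrays, and it fell 5.02-fold (log2 change -2.33, SE 0.352, adjusted p = 0.000448). All Zeb1 arrays were lower, and Zeb1 replicate 1 was the highest of them. On 1425840_a_at, another Sema3f probe set, which passed the filter through the control arrays alone, all 3 Zeb1 arrays were under the floor and the fold was at least 16.7 (log2 change -4.07, and -2.19 with the floor at the pooled median). Sema7a, a membrane-anchored semaphorin that binds integrins and plexin C1, read 10.01, 10.06 and 10.07 and then 8.18, 8.34 and 8.06, with no overlap and a fall of 1.85 in log2 (SE 0.109, adjusted p = 8.38e-07).

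Sema6d, a transmembrane semaphorin that binds plexin A1, read log2 7.43, 7.65 and 7.76 in control and 9.90, 9.92 and 9.97 in Zeb1 cultures. The groups were apart, and it rose 4.97-fold (log2 change 2.31, SE 0.122, adjusted p = 4e-07). The dimmer Sema6d probe set 1448060_at rose by only 0.71 (SE 0.212, adjusted p = 0.0211, and 0.0684 with no filter). On 1459318_at the groups overlapped and the change was not called (adjusted p = 0.322). The untested 1446536_at overlapped too. Sema4g read 6.65, 5.73 and 6.23 and then 8.19, 8.35 and 8.06 and rose 3.99-fold (log2 change 2.00, SE 0.246, adjusted p = 0.000122). It was dim in control cultures, where only 1 array reached its array median, against all 3 Zeb1 arrays. With the floor at the pooled median the Sema4g change was 1.77. Sema4c, a plexin B2 ligand (0.24), Sema4f (-0.10), Sema6b (0.07) and Sema6c (0.26) were not called. Sema4f had a dimmer probe set, 1439768_x_at, with a log2 change of -2.30, which passed the filter through the control arrays alone, 2 Zeb1 arrays being under the floor. With the floor at the pooled median that change shrank to -0.61. Sema3b, Sema3d, Sema3g, Sema5a, Sema5b and Sema6a were too dim to be tested.

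Of the 7 other plexin genes tested, 3 rose, 0 fell and 4 were not called, with a median log2 change of 0.42, against 25.8% higher and 23.5% lower over all genes. Plxnd1, the receptor of Sema3e, read log2 6.51, 6.39 and 6.64 on the control arrays and 8.50, 8.41 and 8.60 on the Zeb1 arrays. The groups were apart, with a 3.97-fold rise (log2 change 1.99, SE 0.161, adjusted p = 7.31e-06). Plxna4, a partner of neuropilin-1, read 6.68, 6.62 and 7.00 and then 7.77, 7.76 and 7.83 and rose 2.03-fold (log2 change 1.02, SE 0.179, adjusted p = 0.00114). Plxna2 was called with a log2 change of 0.65 (adjusted p = 0.0268), which did not pass with no filter (0.0739), without control replicate 1 (0.0885) or 2 (0.0643), or without Zeb1 replicate 1 (0.0763), 2 (0.0599) or 3 (0.072). Its dimmer probe sets 1455037_at and 1451753_at passed the filter through the Zeb1 arrays alone and give no support to that call. Plxna3 (0.42, adjusted p = 0.0639, and 0.0408 without control replicate 2), Plxna1 (0.22), Plxnb3 (-0.09) and Plxdc1 (-0.65) were not called. Plxnc1 and Plxdc2 were not tested.

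**Figure D3:**
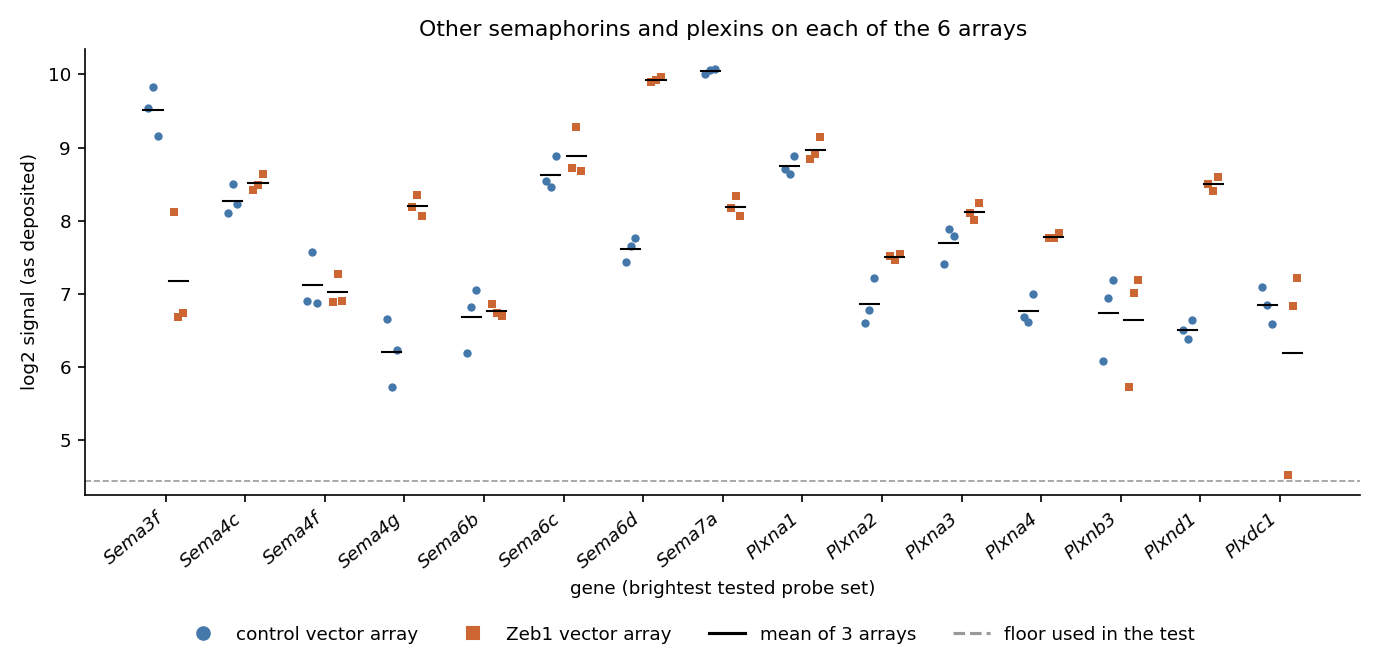
Deposited log2 signal of the other tested semaphorin and plexin genes on each of the 6 arrays, by brightest tested probe set, with control vector and Zeb1 vector arrays in separate colours, group means as black lines and the floor as a dashed line. Sema6d, Sema4g and Plxnd1 are high on all Zeb1 arrays, and Sema3f and Sema7a are low on all of them.

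Genes that act with the family were counted from lists of co-receptors, other neuropilin ligands, signal transducers and proteases. Of 13 co-receptors and other semaphorin receptors tested, 2 rose, 4 fell and 7 were not called (median log2 change -0.07), where 25.8% of all genes were called higher and 23.5% lower. Met, the hepatocyte growth factor receptor with which class B plexins associate, read log2 12.26, 12.22 and 12.22 in control and 10.73, 10.91 and 10.88 in Zeb1 cultures and fell 2.63-fold (log2 change -1.39, SE 0.069, adjusted p = 2.6e-07). Flt4, the VEGF-C receptor with which Nrp2 associates, read 8.11, 8.09 and 8.19 and then 9.66, 9.70 and 9.99 and rose 3.14-fold (log2 change 1.65, SE 0.122, adjusted p = 3.84e-06). The groups did not overlap for either gene.

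Among 6 other neuropilin ligands tested, 3 rose, 0 fell and 3 were not called (median 0.63), against the same background. Vegfc, a lymphatic growth factor that binds Nrp2, rose by 1.89 in log2 (SE 0.217, adjusted p = 7.36e-05). Pgf, placental growth factor, rose by 1.81 (SE 0.161, adjusted p = 1.42e-05) and Tgfb1 by 1.09 (SE 0.109, adjusted p = 3.01e-05). Vegfa, a ligand of Nrp1, had a log2 change of -0.15 (SE 0.111) and was not called (adjusted p = 0.292).

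Of the 36 signal transducers tested, 9 rose, 8 fell and 19 were not called, with a median log2 change of 0.02. Over all genes 25.8% were called higher and 23.5% lower, so these counts are close to the background. The genes named here from this list all rose. Dpysl3 and Dpysl2, collapsin response mediator proteins that act below Sema3a, rose 13.2-fold (log2 change 3.72, SE 0.197, adjusted p = 4.1e-07) and 3.23-fold (1.69, SE 0.0647, adjusted p = 4.93e-08). Dpysl3 read log2 6.69, 6.62 and 7.16 on the control arrays and 10.38, 10.33 and 10.93 on the Zeb1 arrays. Fyn, a Src-family kinase that binds class A plexins, rose 2.71-fold (log2 change 1.44, SE 0.247, adjusted p = 0.001).

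Of 8 proteases known to process semaphorins or their relatives, 3 rose, 2 fell and 3 were not called (median 0.22). Mmp14, a membrane metalloprotease that can shed Sema4d, rose 2.95-fold (log2 change 1.56, SE 0.138, adjusted p = 1.31e-05), while Adamts1 fell 3.15-fold (-1.65, SE 0.126, adjusted p = 4.93e-06). Pcsk5, a proprotein convertase that is counted among the 3, passed the filter through the Zeb1 arrays alone and so had to be higher there. It read log2 3.34, 3.36 and 5.45 in control and 7.23, 7.52 and 7.06 in Zeb1 cultures, with 2 control arrays under the floor. Furin, the best known convertase of class 3 semaphorins, fell by 0.90 in log2 (SE 0.091, adjusted p = 3.22e-05) and is named after its value was seen. Over all genes 25.8% were called higher and 23.5% lower, and nothing is read from counts over so few proteases.

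**Figure D4:**
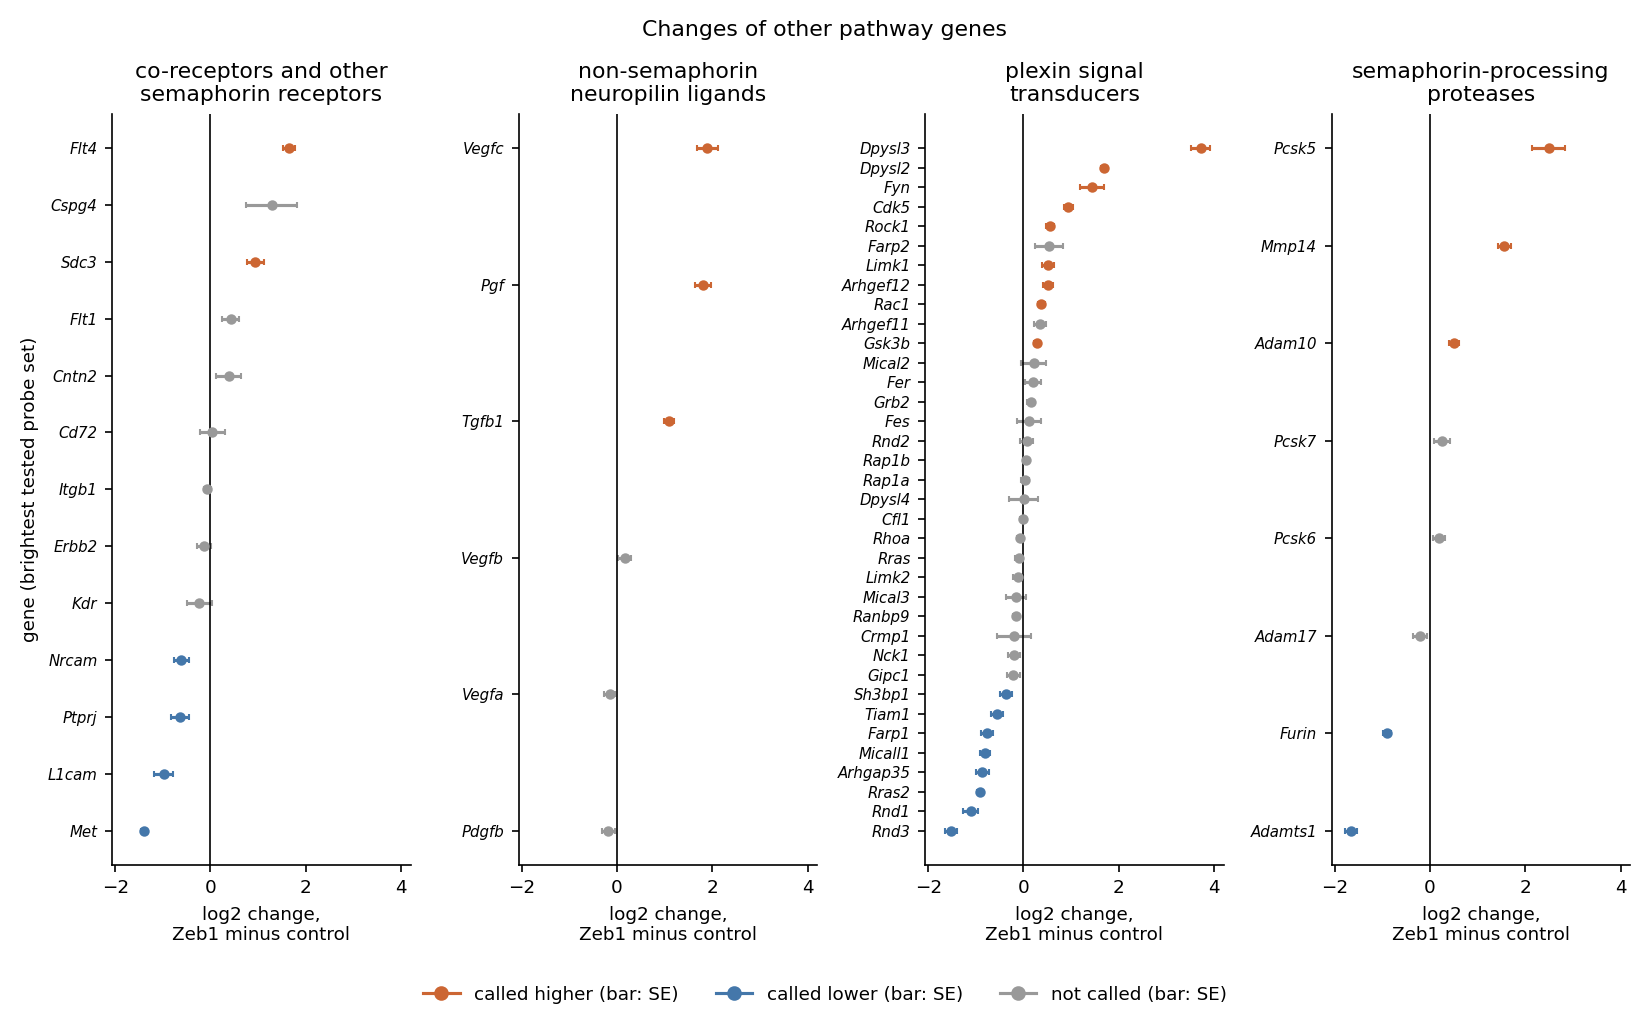
Log2 change (Zeb1 vector minus control vector) of the tested genes of the other pathway lists, one panel per list, each by its brightest tested probe set, with the standard error as bars and colours for the call. Vegfc, Pgf and Tgfb1 lie to the right of 0 among the neuropilin ligands, and the co-receptors, transducers and proteases have calls on both sides of 0.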

How the data were processed

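The log2 values of 45101 probe sets on 6 arrays were used as the authors deposited them. Per the submitters' processing notes they came from MAS5, with no version given, and the trimmed mean of each array (2% from each end) was a linear signal of 500. Detection calls were not used here. The 2 missing values, both on control vector replicate 2, were placed at the floor. Signals below the pooled 25th percentile (log2 4.45, linear 21.8) were raised to it, and 23.9% to 26.4% of an array's probe sets lay there. A probe set was tested if it named 1 gene (34945 did, 932 named several, 9160 none, 64 were controls) and had signals at or above the array median on 3 or more arrays. The groups were compared per probe set with limma 3.58.1 in R 4.3.3 (lmFit, then eBayes with trend), and p-values were adjusted by Benjamini-Hochberg over the 20594 tested probe sets, with 0.05 as the threshold. The procedure was tested on simulated data in which only bright probe sets were shifted, by a fixed amount. How well it finds changes of dim probe sets was not tried there. Over these probe sets, log2 changes had a median SE of 0.147. Errors are SD over arrays for means and limma's SE for changes. Symbols came from the platform annotation, with 34741 of the 34945 probe sets found in the RefSeq table of GRCm38.p6, which was used for names and gene order.

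The members and gene lists were chosen with earlier results of these data known. The genes named were every member, the other semaphorins and plexins, Zeb1, and from each other list the called genes of at least 1 in log2 (at most 5 per direction). Some genes of the transducer list that met this rule, all of them called lower, are not reported here, so every gene named from that list rose. Cell type markers were named from their lists to describe the samples, and those singled out, like Furin, Vegfa and the neighbours on chromosome 5, were chosen after their values were seen. Alternatives covered the floor, the filter, quantile normalization, the variance model, the replicate block, how the probe sets of a gene were combined, and each array left out in turn.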

Additional observations from a re-analysis of the deposited data

How the results depend on the processing

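Member probe sets called higher numbered 11, with 10 to 11 when 1 array was left out and 11 to 12 under the other alternatives. Those called lower numbered 6, with 4 to 6 (4 without Zeb1 vector replicate 1) and 5 to 6. Member genes by their brightest probe set numbered 4 higher (4 to 4, and 4 to 5) and 4 lower (3 to 4, and 3 to 4). Over all probe sets, 5044 higher became 3820 to 5021 with 1 array left out and 4211 to 5072 otherwise, and 4449 lower became 3559 to 4163 and 3818 to 4828. The other pathway genes gave 22 higher (20 to 24, and 20 to 23) and 16 lower (14 to 15, and 15 to 17). Of the alternative values of the 21 member probe sets, 251 kept direction and side of the threshold, 9 lost the call, 5 gained it and 0 reversed.

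Same-numbered control and Zeb1 arrays did not deviate together (correlations of 0.0173, 0.0138 and -0.039). Whether same-numbered cultures were handled together is not stated in the labels, and the main fit holds no replicate block. With the replicate block the member probe sets called were 11 higher and 6 lower, and 4957 and 4420 over all probe sets.

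Of 28 other genes followed, 4 changed sign under some alternative and were not called. Plxdc1 ranged from -1.16 to 0.18 when 1 array was left out, with the positive value without Zeb1 replicate 1. Plxnb3 ranged from -0.42 to 0.37, positive without control replicate 2 (0.01) or 3 (0.13) and without Zeb1 replicate 1, and was 0.026 with the floor at the pooled median. Sema4f ranged from -0.22 to 0.13, positive without control replicate 2. Sema6b ranged from -0.18 to 0.25, negative without control replicate 1, and was -0.023 with quantile normalization. The cause was not tested. Probe sets near the floor, such as those of Sema4a, allow no statement on change, and 3 arrays per group limit the precision of every value.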
